A study of Homo sapiens with 15 samples.

Results

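The genes described here are 9 well known transcriptional targets of p53, followed in a cell line of a lineage that lacks functional p53. They are MDM2, CDKN1A, RRM2B, TP53INP1, SESN1, GDF15, BBC3, ZMAT3 and GADD45A, and every probe set whose single gene symbol was one of these names was taken. A probe set is a group of short probes that together read 1 transcript region. Of the 9 genes, 8 had such a probe set, with 25 in all among 54613 non-control probe sets (19775 genes). No single-symbol probe set named BBC3, an activator of apoptosis, and it is not analysed here. Of the 25, 15 had a mean in at least 1 extract at or above the median of all probe sets (log2 6.61) and were tested, and 10 were dimmer. Each of the 15 was above that line in all 5 extracts, so none passed only through an extract in which it was high. All 8 measured genes had at least 1 tested probe set.

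Messenger RNA was measured on Affymetrix U133 Plus 2.0 arrays in SKOV3ip1, which is derived from SKOV-3, a human line of epithelial ovarian cancer. One culture was kept for 7 days in folate-free medium and received no antibody. The other 4 cultures were kept for 7 days with folic acid at 2 to 10 nM (the labels write nm, and the titles abbreviate the folate source as MTF). Among these, 1 was left without antibody and 3 were treated for 24 hours, with the control antibody 004, with 003 or with MORAb003. MORAb-003 is directed against folate receptor alpha. Whether the names 003 and MORAb003 stand for 1 preparation is not said in the labels. The extracts are called no-folate, folate, 004, 003 and MORAb003 below. Each condition was 1 culture and 1 RNA extract, hybridised as 3 aliquots, so the p-values below compare extracts by their array error, and the spread between cultures was not measured. In bulk RNA, a lower level in all cells and fewer cells with the transcript cannot be told apart. Values are log2 expression as deposited, and a difference of 1 is a factor of 2.

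p53 is a transcription factor that is stabilised after DNA damage and other stress and switches on genes for cell cycle arrest, DNA repair, apoptosis and control of its own level. MDM2 closes a feedback loop by marking p53 for degradation, and CDKN1A (p21) blocks cyclin-dependent kinases. Most of these genes also have inputs that do not need p53, among them growth factor, FOXO and integrated stress signalling, so a line without the protein can still transcribe them. The p53 status given here is background on the SKOV-3 lineage.

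p53 binds DNA as a tetramer at sites built from paired cores that start with C and end with G. To show what the starts of the members look like, the RefSeq promoter windows (GRCh38.p14, 250 bases before to 50 after each annotated start, written 5′ to 3′ on the gene's strand) were searched for a pair of cores. The stricter pair was 2 tetramers with 6 bases between them, each with C first, A or T in both inner places and G last, for example CATG. The looser pair was 1 such tetramer and a tetramer of the form CNNG at the same distance, in either order. Both patterns read the same on either strand, and the looser includes the stricter. Of 35116 windows in the table, 4.79% held the stricter and 34.8% the looser pair. Of 12 windows of 6 members (MDM2, CDKN1A, SESN1, GDF15, BBC3 and ZMAT3), 2 held the stricter and 6 the looser pair. Windows on the chromosome that carries RRM2B and TP53INP1 were left out of the member scan, and no window of GADD45A was available. The shares over all windows were counted without that restriction. Some MDM2 windows overlap, and the looser pair of MDM2 was counted in each window that holds it. Shown are 5 windows, with the matched pair in capitals (the stricter where a window held both) and all letters in lower case where neither was found. They lie at chr12:68807922-68808221 (MDM2 upstream start, + strand), chr12:68808767-68809066 (MDM2 downstream start, + strand), chr3:179071760-179072059 (ZMAT3, - strand), chr6:109008939-109009238 (SESN1, an internal start, - strand) and chr19:18385908-18386207 (GDF15, + strand). The MDM2 windows are set side by side because the gene has a basal start and, inside its first intron, a start known to respond to p53.
MDM2 upstream start: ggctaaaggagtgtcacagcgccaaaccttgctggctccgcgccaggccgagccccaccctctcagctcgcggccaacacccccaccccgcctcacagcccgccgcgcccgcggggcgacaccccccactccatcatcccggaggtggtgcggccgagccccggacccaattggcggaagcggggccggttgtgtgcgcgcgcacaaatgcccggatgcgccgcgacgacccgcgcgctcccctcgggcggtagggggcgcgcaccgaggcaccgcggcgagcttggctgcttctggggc
MDM2 downstream start: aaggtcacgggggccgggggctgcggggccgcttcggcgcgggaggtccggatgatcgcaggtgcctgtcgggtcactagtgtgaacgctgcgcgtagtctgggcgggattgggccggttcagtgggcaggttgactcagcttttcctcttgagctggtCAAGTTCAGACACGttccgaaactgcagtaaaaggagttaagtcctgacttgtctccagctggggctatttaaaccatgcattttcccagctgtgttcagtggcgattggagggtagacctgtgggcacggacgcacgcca
ZMAT3: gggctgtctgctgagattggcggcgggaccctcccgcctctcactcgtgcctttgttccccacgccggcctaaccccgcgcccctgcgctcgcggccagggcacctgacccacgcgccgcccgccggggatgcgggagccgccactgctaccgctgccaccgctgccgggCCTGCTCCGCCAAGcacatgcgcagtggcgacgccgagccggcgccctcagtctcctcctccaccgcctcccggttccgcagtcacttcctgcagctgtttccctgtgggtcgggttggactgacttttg
SESN1 internal start: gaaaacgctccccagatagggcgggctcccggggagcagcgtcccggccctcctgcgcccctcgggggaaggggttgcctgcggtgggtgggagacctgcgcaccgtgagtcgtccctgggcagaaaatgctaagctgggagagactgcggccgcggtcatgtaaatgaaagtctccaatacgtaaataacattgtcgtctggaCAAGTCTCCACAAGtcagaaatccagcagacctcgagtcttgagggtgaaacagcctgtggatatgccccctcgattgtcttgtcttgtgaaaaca
GDF15: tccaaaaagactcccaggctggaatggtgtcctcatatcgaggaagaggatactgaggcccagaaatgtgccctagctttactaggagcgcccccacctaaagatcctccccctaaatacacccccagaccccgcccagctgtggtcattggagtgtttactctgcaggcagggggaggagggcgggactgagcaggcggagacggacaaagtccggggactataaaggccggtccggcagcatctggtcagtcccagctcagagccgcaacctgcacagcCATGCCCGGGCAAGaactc
The MDM2 upstream window held neither pair, and the downstream window held a looser one, CAAGTTCAGACACG. SESN1 and GDF15 held the stricter pair, as CAAGTCTCCACAAG and CATGCCCGGGCAAG. A match is a description of these letters, and the window of CDKN1A held none. The arrays read transcripts mostly near their 3′ ends and do not tell starts apart.

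Replicate 1 of the 004 extract stood apart from all other arrays. It correlated with the other 004 arrays at 0.948 and 0.950 across probe sets, while arrays of each other extract correlated at 0.993 to 0.998. Its 90th percentile was log2 9.04, against 9.58 to 9.88 in the other 14 arrays. It was the lowest of the 15 arrays for the leading probe set of each of the 8 measured members, as the plot of the members by array shows, so results are given with and without it. The RNA also differed between extracts. The log2 gap between the actin 3′ and 5′ probe sets, which commonly widens as RNA gets shorter, was 2.42 ± 0.13 in the MORAb003 extract (SD, n = 3 arrays). It was 3.24 ± 0.13 in the folate, 3.46 ± 0.31 in the 004, 4.02 ± 0.10 in the 003 and 4.09 ± 0.16 in the no-folate extract. All 9 epithelial and ovarian cancer markers were above the filter, with KRT18, EPCAM and FOLR1 averaging log2 14.15, 13.61 and 13.74. Leukocyte markers were above it for 2 of 6 genes measured and fibroblast and endothelial markers for 7 of 9. The summed level of the epithelial list (the sum of linear values, as log2) was 16.10 to 16.19 in the MORAb003 arrays and 15.53 to 15.97 in the other 12. For the leukocyte list the sums were 8.94 to 9.13 in MORAb003 and 9.06 to 9.14 in 003 arrays, and for the fibroblast and endothelial list 10.59 to 10.72 and 10.86 to 11.04. The part of these marker levels in the results below was not tested.

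**Figure D1:**
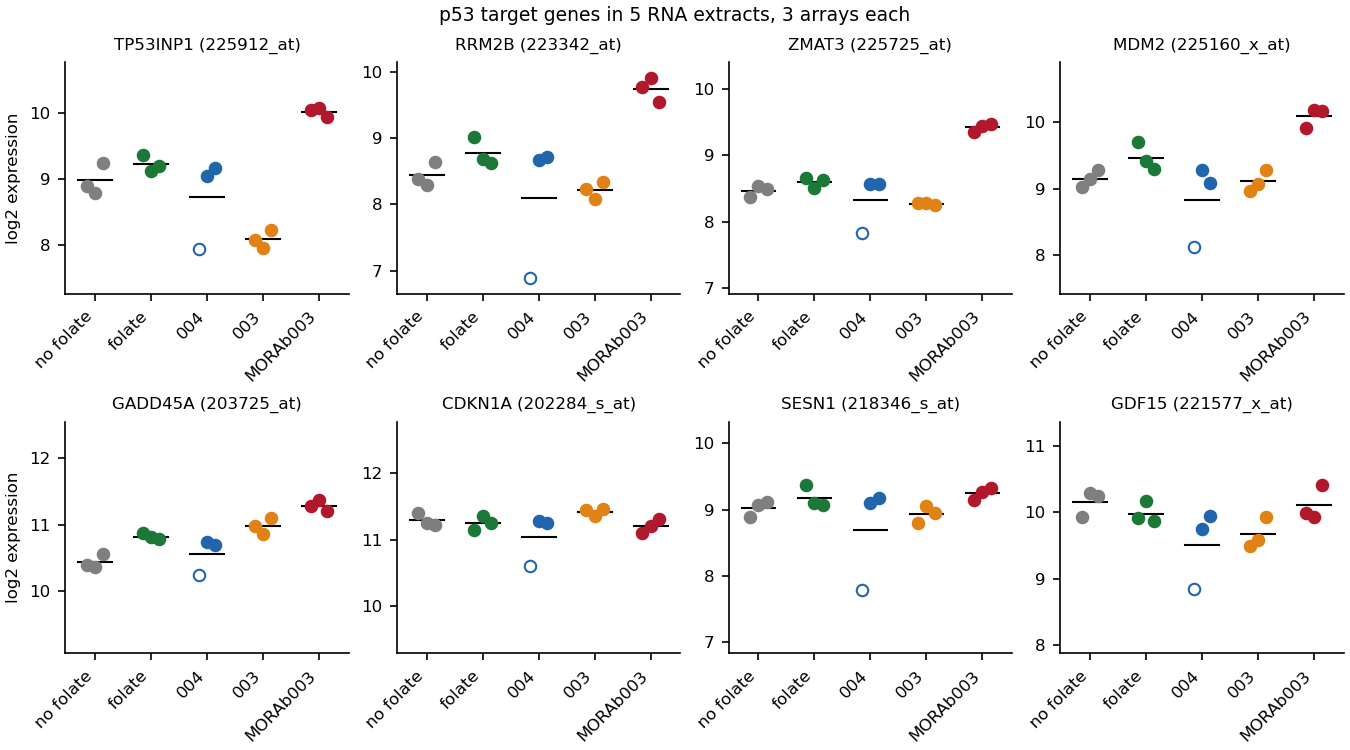
Log2 expression (vertical axis, the same span in every panel) of the leading probe set of each of the 8 measured p53 targets in 5 extracts (horizontal axis). Points are single arrays, short lines are means of 3 arrays, and the open point is replicate 1 of the 004 extract; the 3 MORAb003 arrays lie above the other 12 for TP53INP1, RRM2B, ZMAT3, MDM2 and GADD45A, and not for CDKN1A, SESN1 and GDF15.

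The first question was which p53 targets still varied in this line. TP53INP1, RRM2B, ZMAT3, MDM2 and GADD45A differed among the 5 extracts, and CDKN1A, SESN1 and GDF15 did not pass the test. The leading probe set of a gene is the one with the highest mean over 15 arrays. Through it, 5 of 8 genes were called by limma's moderated F test (Benjamini-Hochberg adjusted p under 0.05 over 30012 probe sets and a highest minus lowest extract mean of at least 1.5-fold, log2 0.58), where 29.1% of all genes tested were called. Counted over probe sets it was 7 of 15 members, against 29.4% of all probe sets. The largest span was that of TP53INP1 at log2 1.93, a 3.8-fold range (adjusted p = 0.000504). RRM2B spanned 1.65 (adjusted p = 0.011), MDM2 1.26 (adjusted p = 0.00556), ZMAT3 1.15 (adjusted p = 0.000425) and GADD45A 0.85 (adjusted p = 0.000975). The median span over the 8 members was 1.00, and over all genes tested 0.48. Without replicate 1 of the 004 extract 5 of 8 genes were again called (31.3% of all genes), and the spans of RRM2B and MDM2 were 1.52 and 0.99.

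TP53INP1 encodes a stress-induced nuclear protein that acts in apoptosis and autophagy. Its leading probe set (225912_at) read 8.90, 8.80 and 9.25 in the no-folate arrays, 9.36, 9.13 and 9.20 in the folate arrays and 7.95, 9.05 and 9.17 in the 004 arrays. It read 8.09, 7.96 and 8.23 in the 003 arrays and 10.04, 10.08 and 9.93 in the MORAb003 arrays. MORAb003 arrays lay above all others, and 003 arrays lay below all arrays other than replicate 1 of 004. The order of the means was MORAb003 (10.02), folate (9.23), no-folate (8.98), 004 (8.73, or 9.11 without replicate 1) and 003 (8.09). The no-folate, folate and 004 arrays overlapped. TP53INP1 fell by 1.14 in the 003 extract against folate (SE 0.24, adjusted p = 0.0243) and rose by 0.79 in the MORAb003 extract (SE 0.24, adjusted p = 0.0453). The 003 and MORAb003 extracts differed by -1.93 (SE 0.24, adjusted p = 5.15e-05), a factor of 3.8. With replicate 1 of 004 left out the differences from folate were the same, with adjusted p-values of 4.28e-06 and 3.31e-05. Leaving out any 1 of the 6 arrays compared ended the call of 003 against folate (adjusted p from 0.0532 to 0.14). The call of MORAb003 against folate was lost without any 1 of the 12 arrays outside the 004 extract (adjusted p from 0.0518 to 0.157).

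RRM2B is a subunit of ribonucleotide reductase that supplies deoxynucleotides for repair and for mitochondrial DNA. It has 1 probe set (223342_at), which read 9.77, 9.91 and 9.55 in the MORAb003 arrays, 9.02, 8.68 and 8.63 in the folate arrays and 8.39, 8.29 and 8.65 in the no-folate arrays. It read 8.24, 8.08 and 8.34 with 003 and 6.89, 8.67 and 8.72 with 004. The MORAb003 arrays stood apart above, and replicate 1 of 004 stood apart below. RRM2B rose by 1.65 in MORAb003 against 004 (SE 0.35, adjusted p = 0.00366), or by 1.05 without replicate 1 of 004 (adjusted p = 2.03e-05). Against folate the difference was 0.97 (adjusted p = 0.0839), and without that array the same difference was called (adjusted p = 1.27e-05). In the 003 extract RRM2B was lower than in the MORAb003 extract by 2.87-fold (log2 -1.52, adjusted p = 0.0035).

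ZMAT3 encodes an RNA-binding zinc finger protein that regulates splicing and messenger RNA stability. Its leading probe set (225725_at) read 9.35, 9.44 and 9.48 in the MORAb003 arrays against 8.65, 8.51 and 8.64 in the folate arrays. With 003 it read 8.28, 8.28 and 8.26, without folate 8.37, 8.54 and 8.49, and with 004 7.83, 8.56 and 8.57. The MORAb003 arrays were the highest, and the 003 arrays lay below all of the folate and no-folate arrays. ZMAT3 rose by 0.82 in MORAb003 against folate (SE 0.16, adjusted p = 0.00438) and by 1.10 against 004 (SE 0.16, adjusted p = 0.000346; 0.86 without replicate 1 of 004). The 003 extract was lower than the MORAb003 extract, with a difference of -1.15 (adjusted p = 9.46e-05). The call of MORAb003 against folate held with each of the 15 arrays left out in turn (adjusted p up to 0.0279).

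MDM2 had 10 probe sets, of which 4 were tested. The leading one (225160_x_at) read 9.91, 10.19 and 10.18 in the MORAb003 arrays and 9.70, 9.41 and 9.29 in the folate arrays. It read 9.02, 9.14 and 9.27 without folate, 8.97, 9.07 and 9.28 with 003 and 8.12, 9.28 and 9.09 with 004. The MORAb003 arrays were above the rest, and the arrays of the no-folate, 003 and 004 extracts overlapped. MDM2 rose by 1.26 in MORAb003 against 004 (SE 0.23, adjusted p = 0.0016), or by 0.91 without replicate 1 of 004 (adjusted p = 5.63e-05). Against folate the difference was 0.63 (adjusted p = 0.0891), called without that array (adjusted p = 0.000482). MDM2 was lower in the 003 than in the MORAb003 extract, with a difference of -0.99 (adjusted p = 0.00391).

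GADD45A encodes a growth arrest and DNA damage protein that binds stress kinases and PCNA. Its 1 probe set (203725_at) read 11.29, 11.37 and 11.21 in the MORAb003 arrays, 10.98, 10.85 and 11.09 with 003, 10.87, 10.81 and 10.78 with folate, 10.25, 10.74 and 10.70 with 004 and 10.39, 10.36 and 10.56 without folate. The MORAb003 arrays were the highest. Its lowest 3-array mean was that of the no-folate extract (10.44), and the 003 mean (10.98) was above the folate mean (10.82). For the other 4 varying members the lowest mean was that of 003 or 004, a difference in pattern that was not tested. GADD45A rose by 0.73 against 004 (SE 0.13, adjusted p = 0.00116), or 0.57 without replicate 1 of 004, which is under the 1.5-fold minimum. Against folate it differed by 0.47 (adjusted p = 0.027), also under the minimum. The no-folate extract differed from folate by -0.39 (adjusted p = 0.0934).

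CDKN1A, the inhibitor of cyclin-dependent kinases and the classical readout of p53, had 1 probe set (202284_s_at). It read 11.41, 11.25 and 11.22 without folate, 11.15, 11.36 and 11.25 with folate, 11.44, 11.36 and 11.46 with 003 and 11.10, 11.20 and 11.32 with MORAb003. With 004 it read 10.60, 11.27 and 11.26. The arrays of all 5 extracts lay close together except for the low replicate 1 of 004. Its F test gave an adjusted p of 0.298, or 0.189 without that array. MORAb003 and folate differed by -0.05 (SE 0.15), and 003 and folate by 0.17 (SE 0.15).

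SESN1 encodes sestrin 1, which restrains mTORC1 under stress. Its probe set (218346_s_at) read 8.89, 9.07 and 9.11 without folate, 9.37, 9.10 and 9.07 with folate and 7.79, 9.11 and 9.17 with 004. It read 8.80, 9.05 and 8.94 with 003 and 9.15, 9.26 and 9.32 with MORAb003. Arrays of the extracts overlapped, and the F test gave an adjusted p of 0.369, or 0.0484 with a span of 0.31 without replicate 1 of 004. GDF15, a secreted stress cytokine of the TGF-beta superfamily, was read by 221577_x_at at 9.94, 10.29 and 10.25 without folate, 9.91, 10.18 and 9.86 with folate and 8.84, 9.75 and 9.95 with 004. It read 9.49, 9.58 and 9.93 with 003 and 10.00, 9.93 and 10.41 with MORAb003. These groups overlapped as well, with an adjusted p of 0.123, or 0.0333 with a span of 0.49 without that array. Both spans were under 1.5-fold.

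The MORAb003 arrays lay above all other 12 arrays for the leading probe sets of 5 of 8 genes, while 20.4% of all genes tested did so. No leading probe set of a member could have all its 003 arrays below the other 12, a pattern shown by 0.419% of genes. Replicate 1 of the 004 extract was the lowest array for each of them. For TP53INP1 and ZMAT3 the 003 arrays lay below all arrays other than that one. The share of all genes that do so was not counted.

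**Figure D2:**
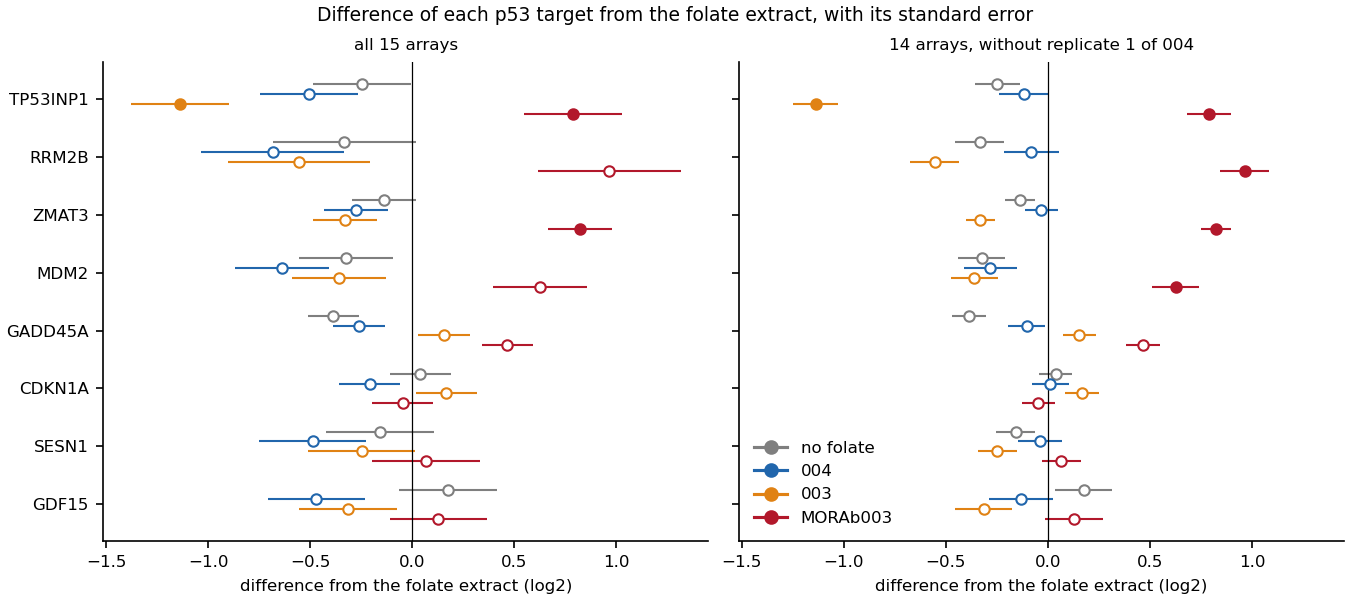
Difference of each extract from the folate extract (horizontal axis, log2, with the standard error of the fit) for the leading probe set of each measured member (vertical axis), with all 15 arrays at left and without replicate 1 of the 004 extract at right. Filled points were called; at right TP53INP1, RRM2B, ZMAT3 and MDM2 are called higher in MORAb003 and TP53INP1 lower in 003, and no member is called for 004 or no folate.

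Between the no-folate and folate extracts, 0 of 8 members were called by limma with all arrays, where 3.09% of all genes were called. It was 0 of 8 again without replicate 1 of the 004 extract, where 6.44% were called. At an unadjusted p under 0.05 there was 1 member, or 4 without that array. The median difference of the 8 members was -0.20, against 0.01 over all genes. Between 004 and folate 0 members were called, and 0.00% of all genes (1 member at an unadjusted p under 0.05, with and without that array). In both comparisons a missed threshold does not show that the levels were alike.

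In the 003 extract, 1 of 8 members was called lower than in folate, TP53INP1, where 1.62% of all genes were called lower (6.47% without replicate 1 of 004, with the same member called). Against 004 no member was called with all arrays (0 of 8, and 3 at an unadjusted p under 0.05, where 3.48% of all genes were called). TP53INP1 differed there by -0.63 (adjusted p = 0.136). Without replicate 1 of 004 it was the 1 member called, with a fall by 1.02 (adjusted p = 4.03e-05), where 5.46% of genes were called lower. The comparisons against folate share the folate arrays, and those against 004 share the 004 arrays.

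In the MORAb003 extract, TP53INP1 and ZMAT3 were called higher than in folate, 2 of 8 members, where 4.98% of all genes were called higher. Without replicate 1 of 004, which enters only through the shared error, the number was 4 of 8, with RRM2B and MDM2 added, against 8.25% of genes. Leaving out any 1 of the 12 arrays outside the 004 extract gave 1 of 8, ZMAT3. Against 004 the 5 varying members were called higher, where 17.6% of all genes were. When replicate 1 of 004 was left out it was 4 of 8, with GADD45A lost, against 9.81% of genes. A limma fit of these 6 arrays alone called 0 of 8 genes, with 8 of 15 member probe sets at an unadjusted p under 0.05. The share of all genes called in that fit is not given here. The median difference of the 8 members was 0.55 against folate and 0.91 against 004, where the medians over all genes were -0.04 and 0.04. Of all probe sets called against folate, 1823 were higher and 528 lower, or 1518 and 788 after quantile normalization. Against 004 they were 5310 and 740, or 3980 and 1647 after quantile normalization, and for 003 against 004 they were 894 and 172, or 813 and 449. With replicate 1 of 004 left out these 3 comparisons had 2754 higher and 589 lower, 3174 and 711, and 298 and 1582, so the balance for 003 against 004 turned to lower calls.

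The 003 and MORAb003 extracts were also compared directly. TP53INP1, RRM2B, ZMAT3 and MDM2 were all lower with 003, 4 of 8 members with 0 higher, where 17.7% of all genes were called lower (18.5% without replicate 1 of 004). These 4 calls held with each of the 15 arrays left out in turn, with adjusted p-values up to 0.000543, 0.0174, 0.000819 and 0.0194. GADD45A differed by -0.31 (adjusted p = 0.0582), GDF15 by -0.44 (adjusted p = 0.144) and SESN1 by -0.31 (adjusted p = 0.344). CDKN1A differed by 0.21 (adjusted p = 0.262). Within the first array date (2 arrays per extract) TP53INP1, RRM2B, ZMAT3 and MDM2 differed by -2.04, -1.68, -1.12 and -1.03. Within the second date (1 array per extract) they differed by -1.71, -1.20, -1.22 and -0.89.

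Beside these differences stands the actin 3′ to 5′ gap. The 5 varying members were highest in the MORAb003 extract, whose gap was the smallest at 2.42. The 003 and no-folate extracts had like gaps of 4.02 and 4.09. TP53INP1 read 7.96 to 8.23 in the former and 8.80 to 9.25 in the latter, without overlap, while RRM2B read 8.08 to 8.34 and 8.29 to 8.65 and MDM2 read 8.97 to 9.28 and 9.02 to 9.27, with overlap. ZMAT3 read 8.26 to 8.28 with 003 and 8.37 to 8.54 without folate, and GADD45A read 10.85 to 11.09 and 10.36 to 10.56, both without overlap. The share of all genes whose arrays separate between these extracts was not counted, so the ranges describe the members only. The part of RNA length in the differences of the members was not tested.

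**Figure D3:**
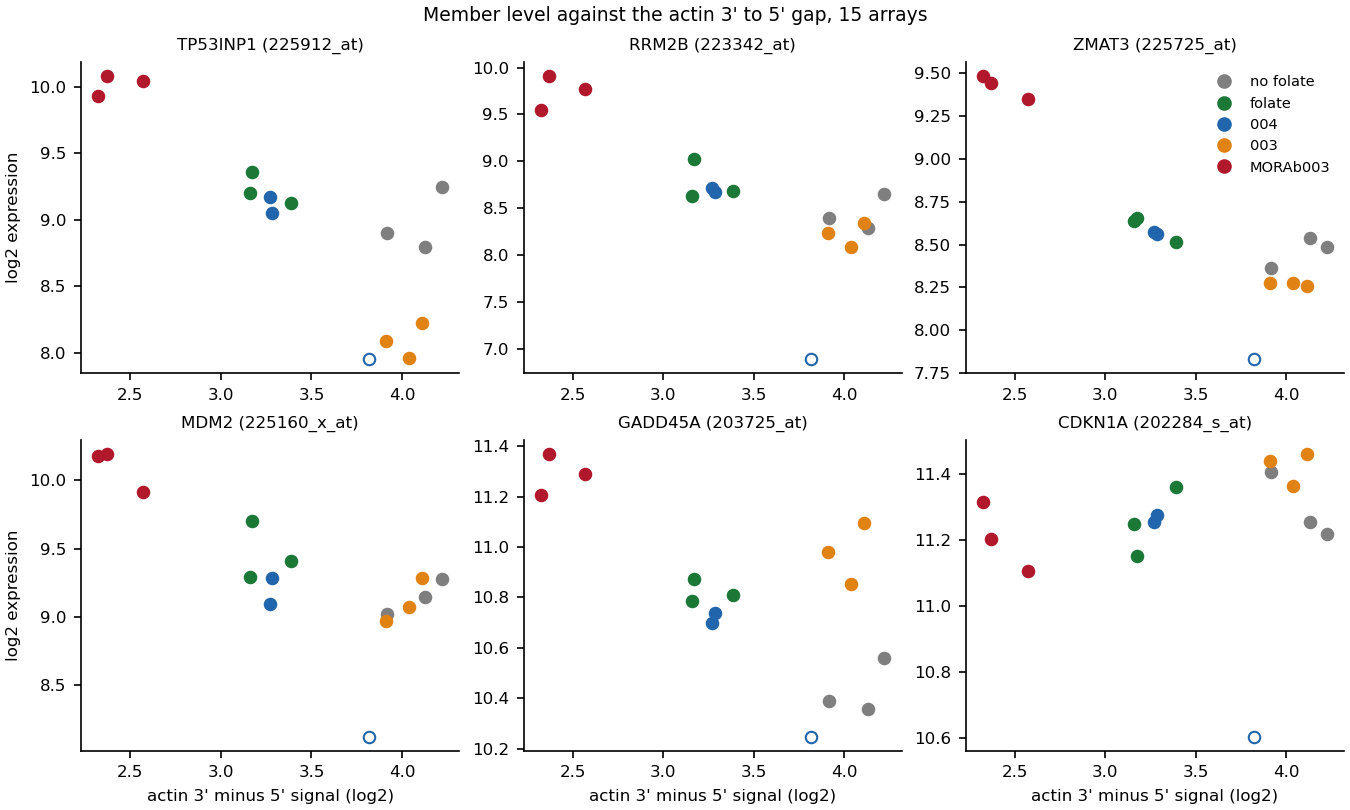
Log2 expression of 6 members (vertical axis) against the log2 gap between the actin 3′ and 5′ signals (horizontal axis) in the 15 arrays, coloured by extract, with replicate 1 of 004 as the open point. MORAb003 arrays sit at gaps of 2.32 to 2.57 with the highest TP53INP1, RRM2B, ZMAT3, MDM2 and GADD45A levels. At gaps near 4 the 003 and no-folate arrays separate for TP53INP1, ZMAT3 and GADD45A and overlap for RRM2B, MDM2 and CDKN1A. The share of all genes that separate there was not counted.

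Probe sets of 1 gene did not all tell the same story. For MDM2, 229711_s_at followed the leading probe set across arrays (Pearson r = 0.907, n = 15 arrays; 0.888 over the 14 without replicate 1 of 004). It rose by 0.77 in MORAb003 against 004 (adjusted p = 0.0282), and the difference was 0.38, under the 1.5-fold minimum, when replicate 1 of 004 was left out. Against folate it differed by 0.28 (adjusted p = 0.493). The probe set 217542_at had r = 0.743, or 0.491 without that array, and 244616_x_at had r = -0.114. The latter read 8.87 ± 0.08 (SD, n = 3 arrays) with folate and 8.81 ± 0.08 with MORAb003, where the leading one read 9.47 ± 0.21 and 10.10 ± 0.16. These correlations describe arrays that share extracts. Of the 6 dim MDM2 probe sets, all under the filter, 205386_s_at read 4.90, 4.48 and 4.72 with folate and 5.28, 5.28 and 4.86 with MORAb003 (r = 0.703). The dim 205385_at went the other way, at 6.12, 6.08 and 6.08 with folate and 5.73, 5.92 and 5.74 with MORAb003 (r = -0.432). The remaining dim ones had r from -0.576 to 0.511 with the leading probe set. So of 4 tested MDM2 probe sets, 2 were called in MORAb003 against 004 (17.7% of all probe sets were called higher there) and 1 by the F test.

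ZMAT3 was the member with the broadest agreement by the F test and in MORAb003 against 004. Of its 4 tested probe sets, 225725_at, 227221_at and 228315_at were called by the F test, with spans of 1.15, 0.87 and 1.21. The same 3 rose in MORAb003 against 004, by 1.10, 0.68 and 1.21 (adjusted p = 0.000346, 0.000535 and 0.0135), or by 0.86, 0.66 and 0.70 without replicate 1 of 004. The fourth, 219628_at, read 7.98 in replicate 1 of 004 and 6.65 to 7.23 in all other arrays. Its correlation with the leading probe set was -0.087 over 15 arrays and 0.678 over 14. In MORAb003 against folate only 225725_at of the 4 was called. The means with folate and with MORAb003 were 7.54 and 8.06 for 227221_at, 8.33 and 8.81 for 228315_at and 6.90 and 7.10 for 219628_at. For TP53INP1 the second tested probe set, 244721_at, ran opposite to the first (r = -0.657, or -0.572 over 14 arrays). It read 7.06, 7.00 and 7.07 with MORAb003, 6.96, 7.31 and 7.36 with folate and 7.28, 7.24 and 7.23 with 003. It was not called in any comparison, at differences of -0.17 (MORAb003 against folate, adjusted p = 0.405) and 0.04 (003 against folate, adjusted p = 0.898). The rise of TP53INP1 with MORAb003 and its fall with 003 thus rest on 1 probe set. When a gene was read as the mean of all its probe sets, limma called 0 of 8 members for 003 against folate (2 at an unadjusted p under 0.05). It called 0 of 8 for MORAb003 against folate (4 at that level) and 2 of 8 between 003 and MORAb003. The share of all genes called in that reading is not given here, so these counts describe the members only. The dim probe sets of GDF15 (221576_at and 229868_s_at) read 5.51 to 6.75 over all arrays. Their means with folate were 6.03 and 5.86, and with MORAb003 they were lower, at 5.65 and 5.57. The leading GDF15 probe set had means of 9.98 with folate and 10.11 with MORAb003.

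**Figure D4:**
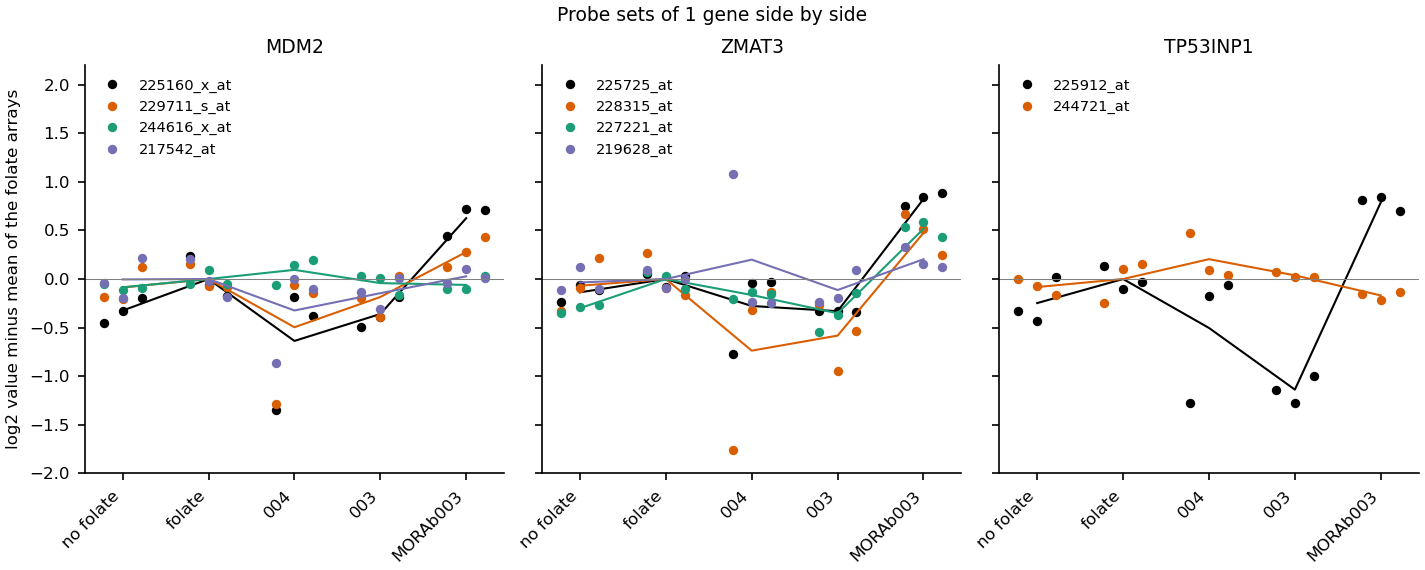
Tested probe sets of MDM2, ZMAT3 and TP53INP1, each as log2 value minus its own mean over the 3 folate arrays (vertical axis), by extract (horizontal axis). Points are arrays and lines join extract means; the MORAb003 means of the leading ZMAT3, MDM2 and TP53INP1 probe sets lie 0.82, 0.63 and 0.79 above folate, while those of 244616_x_at (MDM2) and 244721_at (TP53INP1) differ from it by -0.06 and -0.17.

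Other p53 targets gave a mixed picture. Of 36 listed genes, 33 had a single-symbol probe set and 32 were tested. By the F test 15 of 32 were called, against 29.1% of all genes, and 14 without replicate 1 of 004, against 31.3%. In MORAb003 against folate 4 of 32 were higher, where 4.98% of all genes were. They were ANKRA2 (1.10, adjusted p = 0.0324), the polo-like kinase PLK2 (0.97, adjusted p = 0.0129), the death receptor FAS (0.72, adjusted p = 0.0269) and the apoptosome component APAF1 (0.67, adjusted p = 0.0108). The oxidoreductase TP53I3 was the 1 lower gene, at -0.66 (adjusted p = 0.00968), where 1.85% of all genes were lower. Against 004, 9 of 32 were higher and 1 lower, where 17.6% of all genes were higher and 2.32% lower. The higher were led by ANKRA2, PLK2, the BH3-only protein PMAIP1 and APAF1 at 1.71, 1.35, 1.20 and 1.16. The lower one was the decoy receptor TNFRSF10C at -0.59. The numbers of higher and lower genes were 5 and 2 when replicate 1 of 004 was left out, where 9.81% of all genes were higher. The list's median difference against folate was -0.10, where the median of all genes was -0.04.

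Of the same 32 genes, 8 were lower and 5 higher in 003 than in MORAb003, where 17.7% of all genes were lower. The lower genes were led by ANKRA2, FAS, the cyclin CCNG1 and APAF1 at -1.57, -1.43, -1.27 and -1.20. The higher were led by PIDD1, CES2, TP53I3 and TNFRSF10C at 0.78, 0.72, 0.66 and 0.61, where 7.82% of all genes were higher. CCNG1 and KITLG, the ligand of KIT, were the 2 genes called between no folate and folate, at -0.76 and -0.89 (adjusted p = 0.00819 and 0.00756; 2.11% of all genes were lower). They were also the 2 called between 003 and folate, at -0.81 and -0.67 (adjusted p = 0.0146 and 0.0483), where 1.62% of all genes were lower. With replicate 1 of 004 left out, 1 was higher and 4 lower without folate, where 6.44% of all genes were called. In that fit 4 were lower with 003 than with folate, where 6.47% of all genes were lower. In 003 against 004 CCNG1 was the 1 gene called, at -0.60 (adjusted p = 0.031), where 0.398% of all genes were lower. It was 4 of 32 without replicate 1 of 004, where 5.46% of all genes were lower.

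Of 15 listed members of the p53 family and its regulators, 13 were tested. By the F test 4 of 13 were called, ATM, CHEK2, HIPK2 and MDM4, where 29.1% of all genes were called, and 8 of 13 without replicate 1 of 004 (31.3% of all genes). HIPK2, a kinase that phosphorylates p53, was the 1 gene called against the folate extract both without folate and with 003. It fell by 0.82 without folate (adjusted p = 0.0101), where 2.11% of all genes were lower. With 003 it fell by 0.92 (adjusted p = 0.0139), where 1.62% of all genes were lower. Against folate no regulator was called with MORAb003 (0 of 13 by limma, with and without replicate 1 of 004). There 4.98% of all genes were higher and 1.85% lower with all arrays, and 8.25% were higher without that array. At an unadjusted p under 0.05 there were 2 regulators, or 8 without that array. The share of all genes at that level is not given here, so these 2 counts describe the regulators only. Against 004 the histone acetyltransferases EP300 and CREBBP and the kinases ATR and CHEK2 rose by 1.24, 1.22, 1.15 and 0.68, 4 of 13 where 17.6% of all genes were higher. TP73, a p53 paralogue, fell by 0.61, where 2.32% of all genes were lower. EP300, CREBBP and ATR rose by 0.62, 0.61 and 0.65 when replicate 1 of 004 was left out, 3 of 13 where 9.81% of all genes were higher, and 0 were lower. MDM4, the partner of MDM2, differed among extracts by the F test (span 1.66, adjusted p = 0.0336), with a span of 0.96 when replicate 1 of 004 was left out (adjusted p = 4.63e-07). In that fit it rose by 0.90 in the no-folate extract against folate (adjusted p = 1.48e-06).

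ZMAT3 had the largest F statistic of the members, and the genes whose leading probe set followed it most closely over the 15 arrays were SYTL2, PNMA2, PROS1, ACVR1B and ANKRD50, with Pearson r from 0.983 to 0.987 (0.979 to 0.984 over the 14 arrays without replicate 1 of 004). They were taken from 4162 other genes called by the F test. Within 0.05 of the fifth of these correlations lay 564 genes, the 5 included, so the profile of ZMAT3 was a common one among these arrays.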

How the data were processed

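The deposited values were log2 expression per probe set of 15 Affymetrix U133 Plus 2.0 arrays. Trizol-extracted RNA was labelled as cRNA, per the labels' protocols. The summary and normalization used by the authors is not given in the sources used here. Values ran from 4.00 to 15.52, and differences of dim genes may be understated if a constant was added before the log. Array medians lay between 6.53 and 6.67, and no further normalization was applied. Symbols came from the platform annotation, updated by Entrez identifier (41037 of 41091 single-symbol probe sets matched RefSeq).

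Of 54613 non-control probe sets, the 30012 with an extract mean at or above log2 6.61 were fitted with limma 3.58.1 (lmFit, eBayes) in R 4.3.3, with 5 group means and 10 residual degrees of freedom. A call needed a Benjamini-Hochberg adjusted p under 0.05 and at least 1.5-fold. The fit was tested on simulated data with independent error in every array. Those data held no outlying array, so that test does not cover the effect of one. The number of arrays limits the precision. The members and lists were chosen with earlier results of these data known. All members were named; of each other list up to 4 called genes each way per comparison, and the 5 genes most like the member with the largest F. One item of the rule for named genes is not reported here. Alternatives covered normalization, filter, fold minimum, replicate number or array date as a block, subsets of arrays, other ways to represent a gene, and each array left out.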

Additional observations from a re-analysis of the deposited data

Results flagged for a closer look

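One result stood out because the same comparison, antibody against folate, ran opposite ways in the 003 and MORAb003 extracts. TP53INP1 (225912_at) was lower with 003 than with folate and higher with MORAb003 than with folate, and the test of the difference between the 003 and MORAb003 extracts gave -1.93 (limma adjusted p = 5.15e-05). All 3 arrays of each extract showed its direction against the folate mean of 9.23. The call of 003 against folate was lost with any 1 of 6 arrays left out, and that of MORAb003 with any 1 of 12. The other tested probe set of the gene, 244721_at, ran opposite to this one (r = -0.657). Neither difference from folate was called when the gene was read as the mean of all its probe sets.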

How the results depend on the processing

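Over 15 named differences between extracts, 405 values were recomputed under alternatives, and 354 kept both their direction and their side of the threshold. Another 43 fell short of the threshold, 8 newly passed it and 0 changed direction. Many alternatives, such as the fold minimum, the filter or an array left out from another extract, cannot change a difference. The 15 differences were chosen because they were called with all arrays or without replicate 1 of 004, itself an alternative. The counts were thus partly fixed in advance and do not measure robustness. Member probe sets called by limma numbered 7 by the F test, 8 for MORAb003 against 004, 6 for 003 against MORAb003, 2 for MORAb003 against folate, 1 for 003 against folate, 0 for 003 against 004 and 0 for the other comparisons. With each of the 15 arrays left out in turn these ranged from 5 to 8, 6 to 10, 5 to 6, 1 to 4, 0 to 1, 0 to 1 and 0 to 0. Counted as genes (5, 5, 4, 2, 1, 0 and 0) they ranged from 4 to 6, 4 to 7, 4 to 4, 1 to 4, 0 to 1, 0 to 1 and 0 to 0.

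With the first array date alone, the F test called 4 probe sets and 3 genes, and 0 of either were called for 003 against folate and for MORAb003 against folate (2 and 4 probe sets at an unadjusted p under 0.05). Fewer arrays entered that fit. With a 2-fold minimum MORAb003 against folate had 0 of either (6 probe sets at an unadjusted p under 0.05), and MORAb003 against 004 had 5 probe sets. With no fold minimum MORAb003 against folate had 4 probe sets, and with no filter on dim probe sets 1 probe set and 1 gene. Fits of only the 6 arrays compared gave 4 probe sets and 4 genes for MORAb003 against folate, and 1 and 0 for MORAb003 against 004. Quantile normalization gave 1 probe set and 1 gene for 003 against 004. Quantile normalization of the 14 arrays without replicate 1 of 004, an alternative chosen after seeing the data, also gave 1 and 1 there and 5 probe sets for MORAb003 against 004. Reading a gene as the mean of all its probe sets gave 3 genes by the F test, 2 for MORAb003 against 004, 2 for 003 against MORAb003, 0 for MORAb003 against folate and 0 for 003 against folate. The causes of these changes were not tested beyond the number of arrays or probe sets that enter. Shares of all genes called under these alternatives are not given here, so the counts describe the members only.

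With the replicate number as a block, 1 probe set and 1 gene were called for MORAb003 against folate, since TP53INP1 had an adjusted p of 0.051. The numbers did not pair the arrays. Deviations of same-numbered arrays correlated at -0.54 to 0.50 (8 of 30 pairs above 0.1), and 5 of 15 arrays correlated best with their own number.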
